A study of Mus musculus with 10 samples.

Results

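The genes described here build the centromere and the kinetochore, sense whether chromosomes are attached to the spindle, and correct faulty attachments. They comprise the 21 genes whose symbol is Cenp and a letter (Cenpc1, with a final digit, included) and 23 listed genes, mostly of the Ndc80, Mis12, Ska, Rod-Zw10-Zwilch, checkpoint and passenger complexes, 44 of the 18194 gene symbols on the arrays. Each gene was read from the brightest probe set, by mean signal, among those that carry its symbol alone. All 44 genes passed the filter on low values (log2 above 4 on at least 3 arrays), as did 17204 genes in all. The samples were splenic B cells of Balb/c background mice, each hybridized to an Affymetrix mouse expression array. Naive B cells (n = 4) came from unimmunized Balb/c mice. Germinal centre (GC) B cells came from mice that carry an immunoglobulin heavy chain transgene and a targeted deletion that removes the endogenous JH segments; the lines are VH186.2-Tg JH KO (called B1-8, n = 3) and V23-Tg JH KO (called V23, n = 3). Those mice received 50 µg of NP-CGG, a hapten on a carrier protein, precipitated in alum, and λ+ PNA+ B220+ cells were sorted 14 days later. Naive and GC samples therefore differ in immunization, in the transgene, in the JH deletion and in the sort, and the effects of these cannot be told apart. The labels do not say that replicates came from separate animals, so the p-values may measure only technical spread.

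A centromere is marked by nucleosomes that hold CENP-A, a variant of histone H3. A constitutive network of CENP proteins binds this chromatin and carries the Mis12 complex, which holds the Ndc80 complex, the main attachment to microtubules. Unattached kinetochores recruit checkpoint proteins that delay anaphase, and the chromosomal passenger complex, with the kinase Aurora B, releases wrong attachments. Many of these genes are transcribed mainly in the G2 and M phases of dividing cells. GC B cells are known as rapidly dividing cells and naive B cells as resting ones. In these bulk samples, fewer expressing cells and less RNA per cell cannot be told apart.

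The B cell identity of the samples was visible in the mean log2 signal of 5 measured B cell markers, which lay between 13.38 and 13.57 in naive and between 12.72 and 13.27 in GC arrays. Of those 5 markers, Pax5 was called lower in GC cells, as was Cd79a, whose call ended without any of 6 arrays (naive replicates 1 to 4 and B1-8 replicates 1 and 3, adjusted p = 0.0504 to 0.0794), and the other 3 were not called. All 5 measured GC markers (Bcl6, Fas, S1pr2, Mybl1, Gcsam) rose in GC cells. Neutrophil markers moved with the groups: all 9 measured rose, with array means between 7.48 and 9.48 in naive and between 10.75 and 11.58 in GC samples, and their lowest group mean was that of Elane in naive samples, at 6.12. Macrophage markers were called lower in 2 of 6 and T cell markers in 1 of 8 cases, plasma cell markers were called higher in 2 and lower in 1 of 5, and erythroid markers higher in 1 and lower in 1 of 5. Of these calls, leaving out 1 array ended that of the T cell marker Cd3d (any of 7 arrays, 0.0619 to 0.117), the macrophage marker C1qc (8 arrays, 0.0747 to 0.118) and the plasma cell marker Xbp1 (9 arrays, 0.0508 to 0.0854). For Cd3d the arrays were all but naive replicate 1, B1-8 replicate 2 and V23 replicate 1, for C1qc all but naive replicate 3 and B1-8 replicate 1, and for Xbp1 all but B1-8 replicate 3. Those of C1qb and of the erythroid marker Alas2 ended without naive replicates 2 and 4 (0.0647 and 0.0628). The 3′ minus 5′ difference of the Actb control probe sets lay between 1.27 and 1.65 in naive, 0.81 and 1.19 in B1-8 and 0.71 and 0.87 in V23 arrays. The part of these differences in the results below was not tested.

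Kinetochore and checkpoint genes were higher in GC than in naive B cells almost throughout. Against naive cells, 42 of the 44 genes rose in the mean of both GC groups, where 20.5% of all tested genes rose. Nsl1 was called lower (21% of all genes) and Cenpq was not called (limma, Benjamini-Hochberg adjusted p below 0.05 over all tested genes). The median log2 fold change of the 44 genes was 2.05, with quartiles of 0.77 and 2.72, beside a median of 0.06 over all 17204 genes. A rise of at least 2-fold was called for 31 of the 44 genes (7.02% of all genes), of at least 4-fold for 23 (2.24%) and of at least 8-fold for 8 (0.593%). In 38 genes all 6 GC arrays lay above all 4 naive arrays, as they did in 17% of all genes, and in 1, Nsl1, all lay below (18.5%). By line, 37 genes rose in B1-8 (16.4% of all genes) and 40 in V23 (18.2%), with medians of 1.89 and 2.10; by limma 0 genes were called lower in B1-8 (17.3% of all genes; 1 of the 44 at an unadjusted p under 0.05) and 0 in V23 (19.7%; 0 at an unadjusted p under 0.05). Both lines are compared with the same 4 naive arrays. Without naive replicates 2 and 4, an alternative chosen after the data were seen, 38 genes rose in the mean comparison, 34 in B1-8 and 38 in V23. Of all 17204 genes, 3108, 2503 and 2847 rose in that alternative. The calls of Cenpt, Cenpx and Zw10 in B1-8 were among those that ended there (adjusted p = 0.0674, 0.0671 and 0.0591).

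**Figure D1:**
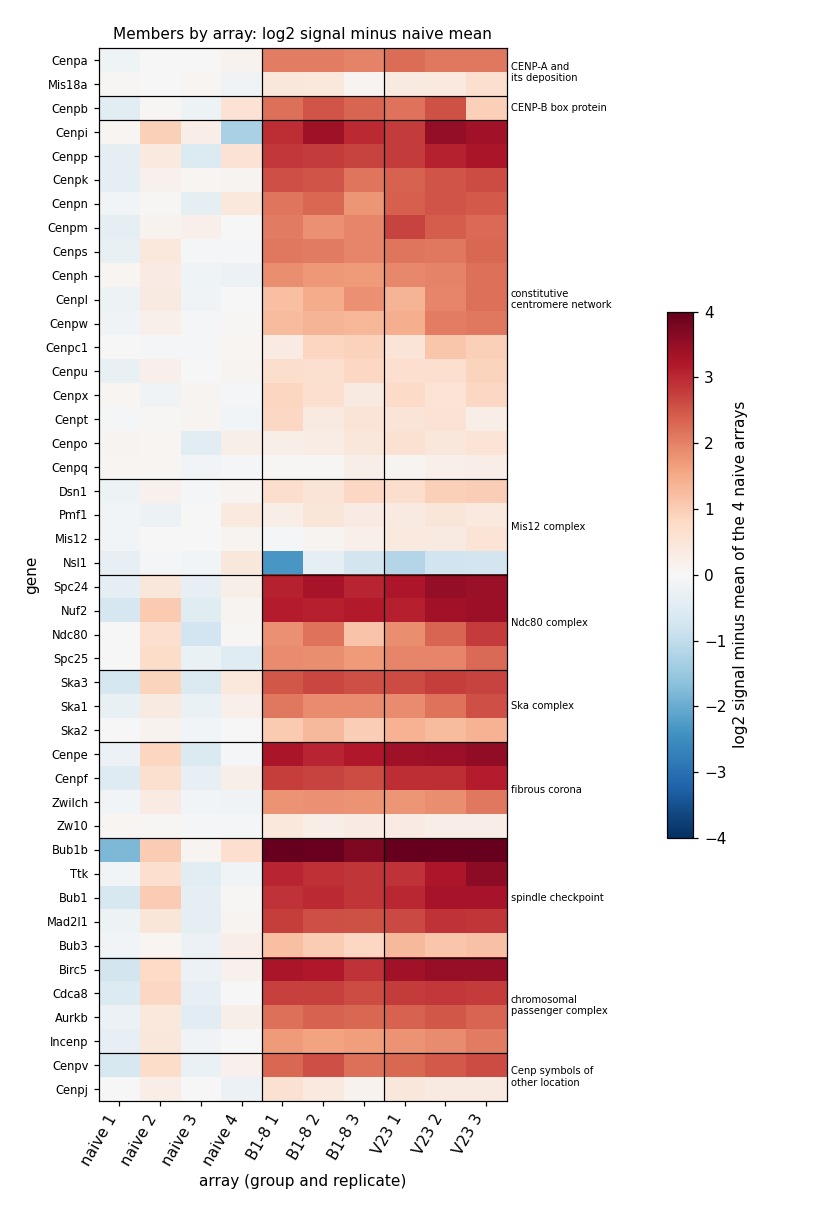
Log2 signal of each of the 44 genes (rows, grouped by complex) on each of the 10 arrays (columns), minus that gene's mean over the 4 naive arrays; red is higher and blue lower. The 6 GC columns are red in nearly all rows, with Nsl1 in blue, and naive replicate 2 is the reddest naive column; the 6 GC values of Bub1b near or past 4 share the darkest colours.

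Promoter sequences are shown for the 4 genes with the smallest p in the mean comparison that have an entry in the RefSeq table (build GRCm38.p6). Each run holds the 250 bases before the annotated start, 5′ to 3′ on the gene's strand, and capitals mark CCAAT on either strand (ATTGG on the other one). They also mark TTTGAA on either strand. The palindrome TTCGAA is marked as well. CCAAT boxes and the elements TTTGAA and TTCGAA are known from promoters of genes transcribed in G2 and M phase. For Cenpk, which has 3 windows, the one listed first is printed.
Cenpa (chr5:30666636-30666885, plus strand): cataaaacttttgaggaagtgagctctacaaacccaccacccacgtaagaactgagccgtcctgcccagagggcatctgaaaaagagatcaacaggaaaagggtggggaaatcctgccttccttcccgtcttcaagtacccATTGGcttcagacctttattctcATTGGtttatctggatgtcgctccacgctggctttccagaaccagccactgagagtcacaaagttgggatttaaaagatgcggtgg
Cenpk (chr13:104228361-104228610, plus strand): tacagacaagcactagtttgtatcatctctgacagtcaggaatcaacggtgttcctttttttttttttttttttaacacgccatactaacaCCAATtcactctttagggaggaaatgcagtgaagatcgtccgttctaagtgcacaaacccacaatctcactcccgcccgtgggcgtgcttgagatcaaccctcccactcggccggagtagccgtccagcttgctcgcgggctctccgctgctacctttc
Mad2l1 (chr6:66534971-66535220, plus strand): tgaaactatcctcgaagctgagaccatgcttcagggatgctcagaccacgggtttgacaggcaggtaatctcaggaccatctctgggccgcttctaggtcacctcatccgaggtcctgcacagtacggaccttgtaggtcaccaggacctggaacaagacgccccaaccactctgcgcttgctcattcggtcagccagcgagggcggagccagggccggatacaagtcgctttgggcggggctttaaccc
Cenpm (chr15:82244337-82244586, minus strand): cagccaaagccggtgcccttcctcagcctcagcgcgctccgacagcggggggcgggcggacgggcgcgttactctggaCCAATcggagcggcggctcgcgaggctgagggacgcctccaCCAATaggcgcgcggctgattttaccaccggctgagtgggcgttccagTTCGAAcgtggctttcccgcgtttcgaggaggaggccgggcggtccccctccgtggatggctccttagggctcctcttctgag
The Cenpm window holds CCAAT at 172 and 131 bases before the start and TTCGAA at 83 bases, the Cenpa window holds CCAAT on the other strand at 109 and 86, and the Mad2l1 window holds none of these letters. Of the 44 genes, 38 had an entry, with 42 windows in all. CCAAT on either strand occurred in 23 of the 42 windows (54.8%), beside 33.8% of all 32851 windows of this length. TTTGAA or TTCGAA on either strand occurred in 11 windows (26.2%, beside 17.1% of all windows), and CCAAT together with TTTGAA or TTCGAA in 7 (16.7%, beside 6.02%). Among the genes that rose at least 2-fold, 18 of 29 windows held CCAAT, and among the other genes 5 of 13. Bub3, Cenpk and Cenpx have several windows each, and all of these hold CCAAT. Counted by gene, CCAAT occurred in 19 of 38 genes, beside 10133 of all 27025 genes with windows. TTTGAA or TTCGAA occurred in 10 of the 38 genes, beside 5284 of all. Together with CCAAT they occurred in 6 genes, beside 1892 of all. These matches describe letters in the windows and were not tested.

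At the base of the kinetochore, Cenpa (1450842_a_at), the centromeric histone, had the smallest p of the 44 genes. Its log2 signal was 9.81, 9.999, 10.004 and 10.14 in naive replicates 1 to 4, 12.04, 12.05 and 11.97 in B1-8 and 12.22, 12.10 and 12.10 in V23. The GC values lay in a narrow band far above all naive values, a rise of 2.09 ± 0.08 (log2 ± SE, adjusted p = 1.07e-06) or 4.25-fold. Averaging all probe sets of Cenpa gave 0.69 (adjusted p = 0.00193). Mis18a, part of the complex that prepares centromeres for new CENP-A, rose by only 0.40 ± 0.10 (adjusted p = 0.0129) in the mean comparison. In B1-8 alone it was at 0.33 (adjusted p = 0.072), and its call in the mean comparison ended without naive replicates 2 and 4 (0.108). In V23 it was at 0.48 (adjusted p = 0.0139), a call that ended without V23 replicate 3 (0.0536). Cenpb, which binds a DNA motif in centromeric repeats, read 6.00, 6.52, 6.27 and 7.05 in naive, 8.66, 8.99 and 8.78 in B1-8 and 8.64, 9.02 and 7.41 in V23 cells. It rose by 2.12 ± 0.32 (adjusted p = 0.000824), although V23 replicate 3 lay close to the naive range, and averaging its probe sets gave 1.41.

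In the constitutive centromere network 14 of 15 genes rose, by between 0.43 (Cenpo) and 3.17 (Cenpi), and Cenpq was not called (0.15). The median of the 15 genes was 1.67, and they differed widely among themselves. Cenpk (1418264_at), of the CENP-H/I/K/M group, was 7.39, 7.94, 7.83 and 7.88 in naive, 10.34, 10.28 and 9.91 in B1-8 and 10.10, 10.29 and 10.38 in V23 cells. The groups did not overlap, and the rise was 2.46 ± 0.14 (adjusted p = 4.96e-06; 1.58 when its probe sets were averaged). Cenpi read 6.20, 7.10, 6.38 and 4.84 in naive, 9.08, 9.51 and 9.13 in B1-8 and 8.94, 9.65 and 9.49 in V23 cells, with naive replicate 4 lowest. All 4 genes of that group rose, Cenpi by 3.17 ± 0.39, Cenpm by 2.21 ± 0.14 and Cenph by 1.90 ± 0.13. Cenpn, which recognises the CENP-A nucleosome, rose by 2.27 ± 0.17 and its partner Cenpl by 1.67 ± 0.20. Cenpc1, the protein that links CENP-A chromatin to the Mis12 complex, rose by 0.78 ± 0.15 (adjusted p = 0.00302). In B1-8 alone the call of Cenpc1 (0.71, adjusted p = 0.015) ended without B1-8 replicate 2 (0.0602), B1-8 replicate 3 (0.0578) or naive replicates 2 and 4 (0.066).

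Partners within the network had unlike fold changes. In the CENP-O/P/Q/U group, Cenpp read 6.52, 7.32, 6.38 and 7.49 in naive, 9.77, 9.72 and 9.64 in B1-8 and 9.73, 10.02 and 10.21 in V23 cells and rose by 2.92 ± 0.24 (adjusted p = 2.35e-05). Cenpq read 10.37, 10.37, 10.18 and 10.22 in naive, 10.32, 10.31 and 10.52 in B1-8 and 10.40, 10.49 and 10.55 in V23 cells. Its groups overlapped, and its difference of 0.15 ± 0.08 was not called (adjusted p = 0.178). When probe sets were averaged, the calls of Cenpu (0.38, adjusted p = 0.0558) and Cenpo (0.18, adjusted p = 0.46) ended; with the probe sets used, Cenpu rose by 0.73 ± 0.11 and Cenpo by 0.43 ± 0.13 (adjusted p = 0.0276; 0.0519 to 0.0577 without B1-8 replicate 3, V23 replicate 1 or V23 replicate 3). In V23 alone Cenpo was at 0.54 (adjusted p = 0.0238), and leaving out V23 replicate 1 or 3 ended that call too (0.0705 and 0.0662). Of the histone-fold proteins, Cenps rose by 2.11 ± 0.13 and Cenpw by 1.59 ± 0.14, while Cenpx rose by 0.67 ± 0.12 and Cenpt by 0.51 ± 0.12. Cenps and Cenpx also act in DNA repair. In V23 alone, the call of Cenpt (0.45, adjusted p = 0.0316) ended without naive replicate 1, 2 or 4 or V23 replicate 1 or 2 (0.0524 to 0.109). Differences between genes in their fold changes were not tested.

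The 4 genes of the Mis12 complex had a median of 0.33, the lowest of any complex with the probe sets used. When all probe sets of a gene were averaged the median was 0.72, above the 0.51 of Cenpa and Mis18a, and the other probe sets of Nsl1 and Pmf1 were higher in GC cells. Dsn1, which carries the Aurora B sites of the complex, read 9.02, 9.40, 9.16 and 9.32 in naive, 9.93, 9.74 and 10.05 in B1-8 and 9.94, 10.19 and 10.20 in V23 cells. It rose by 0.78 ± 0.11 (adjusted p = 0.00048), and all GC arrays lay above all naive ones. Pmf1 was at 0.39 ± 0.12 (adjusted p = 0.0325) and Mis12 itself at 0.26 ± 0.08 (adjusted p = 0.0366). Naive and GC arrays overlapped in both, and both calls ended without any of 7 single arrays. For Pmf1 these were naive replicates 1, 2 and 3, B1-8 replicates 2 and 3 and V23 replicates 2 and 3 (adjusted p = 0.0525 to 0.0915), and for Mis12 naive replicates 1, 2 and 3, B1-8 replicates 2 and 3 and V23 replicates 1 and 3 (0.0536 to 0.108).

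Nsl1 (1447705_at) was the only gene of the 44 called lower. It read 7.78, 8.06, 8.00 and 8.54 in naive, 5.76, 7.71 and 7.36 in B1-8 and 6.94, 7.30 and 7.36 in V23 cells. All GC values lay below all naive values, with B1-8 replicate 1 far below the rest, and the change was −1.02 ± 0.36 (adjusted p = 0.0498). It was not called in either line alone (adjusted p = 0.0702 in B1-8 and 0.138 in V23). The call ended without any of 8 arrays, namely the 4 naive replicates, B1-8 replicate 3 and V23 replicates 1, 2 and 3 (adjusted p = 0.051 to 0.124). The other probe set of Nsl1 moved the opposite way, as described below.

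The Ndc80 complex rose in all 4 genes in both lines, by a median of 2.62. Spc24 (1431087_at), whose protein sits at the end of the complex that faces the centromere, read 7.90, 8.76, 7.98 and 8.54 in naive, 11.38, 11.58 and 11.33 in B1-8 and 11.52, 11.81 and 11.75 in V23 cells. Its rise of 3.27 ± 0.18 (adjusted p = 4.54e-06) was 9.61-fold. Nuf2, which pairs with Ndc80 at the end that holds microtubules, read 7.77, 9.48, 7.97 and 8.56 in naive, 11.59, 11.54 and 11.62 in B1-8 and 11.56, 11.81 and 11.86 in V23 cells. Naive replicate 2 was the highest naive array and still lay far below all GC arrays. Nuf2 rose by 3.22 ± 0.30 (adjusted p = 5.41e-05), Ndc80 by 2.02 ± 0.33 (0.00109) and Spc25, the partner of Spc24, by 1.94 ± 0.22 (0.00015; 1.24 when its probe sets were averaged). All 3 genes of the Ska complex, which stabilises Ndc80 on microtubules, also rose. Ska3, the subunit that binds Ndc80, read 6.14, 7.73, 6.27 and 7.25 in naive, 9.33, 9.52 and 9.44 in B1-8 and 9.45, 9.61 and 9.55 in V23 cells, with the GC arrays close together. Ska3 rose by 2.64 ± 0.30 (3.28 without naive replicates 2 and 4), Ska1 by 2.09 ± 0.18 and Ska2 by 1.23 ± 0.09 (adjusted p = 0.000162, 3.42e-05 and 1.39e-05). Averaging the probe sets of Ska1 gave 1.42.

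**Figure D2:**
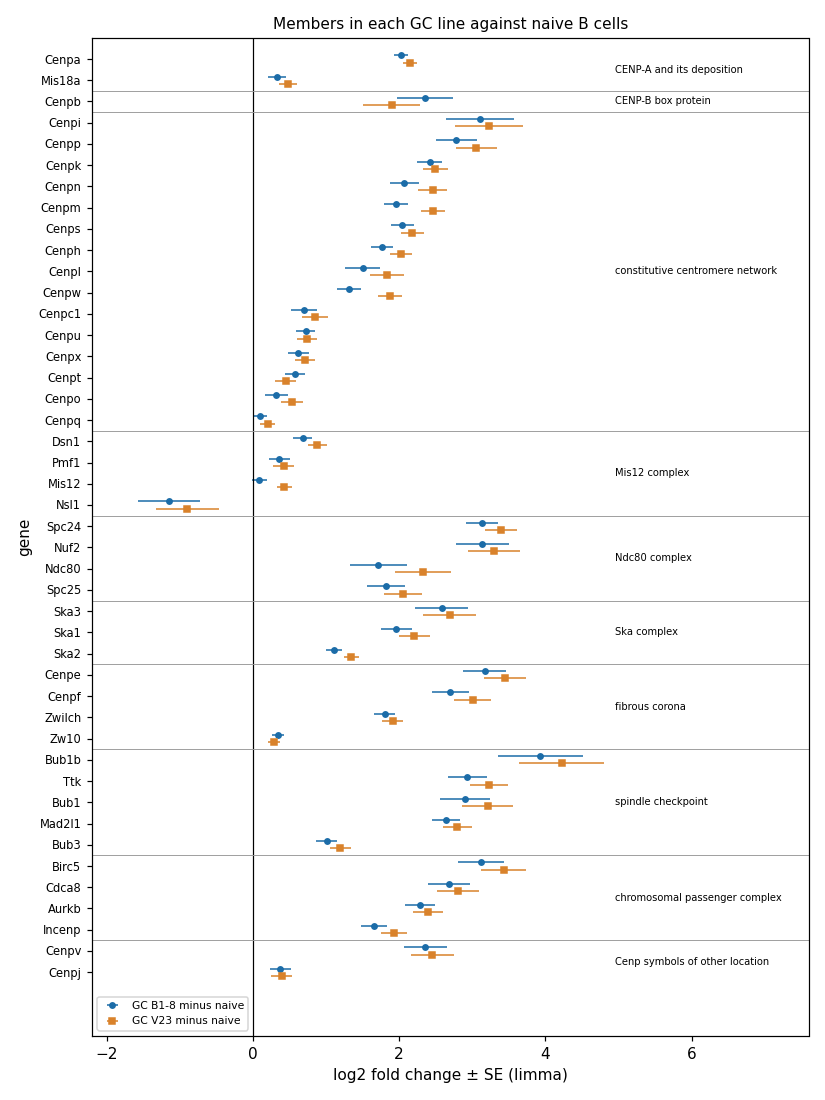
Log2 fold change against naive B cells (horizontal axis) of each gene (rows, by complex) in GC B1-8 (blue circles) and GC V23 (orange squares), with bars for the SE of the limma fit. Checkpoint genes other than Bub3 lie far to the right, as do Nuf2 and Spc24 of the Ndc80 complex. Ndc80 and Spc25 lie further left, at 1.72 and 1.82 in B1-8. In the Mis12 complex, Mis12 and Pmf1 lie near 0, Dsn1 lies further right, and Nsl1 is the gene left of 0. Both lines use the same 4 naive arrays.

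The 5 spindle checkpoint genes all rose, and their median of 3.06 was the highest of any complex with the probe sets used. Averaging probe sets gave 2.72, below the 2.80 of the passenger complex. Bub1b, which encodes BubR1, a part of the inhibitor of the anaphase-promoting complex, read 5.49, 8.31, 7.41 and 7.95 in naive, 11.41, 11.24 and 11.02 in B1-8 and 11.50, 11.57 and 11.48 in V23 cells. GC values were within a narrow range and naive values were spread widely. The rise of 4.08 ± 0.49 (adjusted p = 0.000208) was the highest fitted among the 44 genes, at 16.9-fold. Without naive replicate 1, the array at 5.49, it was 3.48 (adjusted p = 2.81e-05), and without naive replicates 2 and 4 it was 4.92. Averaging its probe sets gave 3.01. Ttk, the kinase Mps1 that starts checkpoint signalling, read 7.37, 8.17, 7.05 and 7.36 in naive, 10.52, 10.40 and 10.34 in B1-8 and 10.38, 10.71 and 11.05 in V23 cells, a rise of 3.08 ± 0.22 (1.34e-05; 2.04 when its probe sets were averaged). Mad2l1, which encodes Mad2, the protein that blocks Cdc20, read 9.55, 10.23, 9.38 and 9.87 in naive, 12.54, 12.35 and 12.32 in B1-8 and 12.39, 12.64 and 12.63 in V23 cells. All GC values were well above all naive values, and the lines overlapped. Mad2l1 rose by 2.72 ± 0.17 (6.34e-06) and the kinase Bub1 by 3.06 ± 0.29 (5.87e-05). Bub3, the shared partner of Bub1 and BubR1, rose less, by 1.10 ± 0.12 (adjusted p = 0.000132), from 11.68 ± 0.23 (SD, n = 4) in naive cells to 12.69 ± 0.18 in B1-8 and to 12.87 ± 0.09 in V23 (n = 3 each). Averaged over its probe sets, Bub3 was not called (0.43, adjusted p = 0.069; 0.0902 in B1-8 and 0.187 in V23).

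The outer layer that forms on unattached kinetochores rose in 4 of 4 genes with the probe sets used, of which Zw10 was lower when its probe sets were averaged. Cenpe, a kinesin that moves chromosomes toward the spindle equator, read 7.84, 8.93, 7.49 and 8.01 in naive, 11.33, 11.12 and 11.27 in B1-8 and 11.45, 11.48 and 11.62 in V23 cells. It rose by 3.31 ± 0.25 (adjusted p = 1.58e-05), or 9.92-fold. Cenpf, a large coiled-coil protein that binds microtubules, rose by 2.85 ± 0.21 (1.65e-05). In the Rod-Zw10-Zwilch complex, which brings dynein and checkpoint proteins to kinetochores, Zwilch rose by 1.86 ± 0.12 (7.34e-06) and Zw10 by 0.32 ± 0.07 (adjusted p = 0.00554). The 3 other probe sets of Zw10 fell, as described below, and averaging all 4 gave −2.32 (adjusted p = 2.04e-05). Zw10 also works in membrane traffic outside mitosis. In V23 alone, the call of Zw10 (0.29, adjusted p = 0.0209) ended when naive replicate 3 or either of V23 replicates 1 and 2 was left out (0.0542 to 0.0602).

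All 4 chromosomal passenger genes rose in both lines. Birc5, which encodes survivin and brings the complex to centromeres, read 8.27, 9.79, 8.77 and 9.16 in naive, 12.27, 12.20 and 11.89 in B1-8 and 12.35, 12.47 and 12.47 in V23 cells. The rise was 3.28 ± 0.26 (adjusted p = 2.22e-05), or 9.69-fold. Aurkb read 8.21, 8.88, 8.00 and 8.69 in naive, 10.66, 10.81 and 10.74 in B1-8 and 10.81, 10.94 and 10.78 in V23 cells, without overlap between naive and GC arrays. Cdca8, which encodes borealin, rose by 2.74 ± 0.24, Aurkb, the kinase Aurora B, by 2.34 ± 0.17 and Incenp, the scaffold of the complex, by 1.80 ± 0.15 (adjusted p = 3.72e-05, 1.46e-05 and 2.76e-05). The probe sets used for Aurkb, Incenp, Mis18a and Pmf1 end in _x_at and can share sequence with other genes. Those used for Bub3, Cdca8 and Cenpo end in _s_at and can do so too. Cenpv, which acts on the central spindle, rose by 2.41 ± 0.25 (8.76e-05), and Cenpj, a centriole protein despite its name, was at 0.39 ± 0.12 (adjusted p = 0.0335). The call of Cenpj ended without any of 8 arrays, namely naive replicates 1, 3 and 4, B1-8 replicates 1 and 2 and V23 replicates 1, 2 and 3 (0.0556 to 0.0874).

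The naive samples were not alike in these genes. Mean log2 signals over the 44 genes were 8.48, 9.11, 8.55 and 8.81 in naive replicates 1 to 4, beside 10.46, 10.52 and 10.41 in B1-8 and 10.55, 10.69 and 10.73 in V23 cells. Naive replicate 2 was the highest naive array in 28 of the 44 genes and naive replicate 4 in 10, while naive replicate 1 was the lowest in 22. Over the 42 genes that rose, naive replicate 2 lay a median of 0.46 above the mean of the other naive arrays. The GC marker mean was likewise highest in that array, at 9.80 against 8.08, 8.24 and 9.01 in naive replicates 1, 3 and 4, and lay between 11.91 and 12.06 in GC arrays. Lists of related genes, described below, were highest there too. In naive replicates 1 to 4, condensin genes read 9.63, 10.33, 9.57 and 9.88. Cohesin genes and their regulators read 10.06, 10.535, 9.97 and 10.23, and other kinetochore and checkpoint genes 8.54, 9.09, 8.55 and 8.83. The neutrophil mean was highest among naive arrays in replicate 4, at 9.48, and was 7.98 in replicate 2. In 30 of the 44 genes (68.2%, beside 34.1% of all tested genes) the SD was larger in naive samples than in both GC groups. Without naive replicate 2 the median log2 fold change of the 44 genes was 2.16.

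Genes that work with the kinetochore were read from lists outside the rule. Other kinetochore and checkpoint genes numbered 19 among those tested, and 17 of them rose while 2 fell (median 1.37). Of all tested genes 20.5% rose and 21% fell in the same mean comparison, shares that stand beside each count here. Trip13, which disassembles checkpoint complexes, rose by 2.13 ± 0.13, the kinesin Kif18a by 2.48 ± 0.19, Knl1, the platform for Bub1, by 1.96 ± 0.15 and Ckap5, a microtubule polymerase, by 1.37 ± 0.11. Ckap5 was at 0.00 with the mean of its probe sets (adjusted p = 0.99). The genes that fell were Ndel1, a dynein regulator (−0.61 ± 0.09), and Clasp1, which stabilises microtubules (−0.28 ± 0.08), named because only these fell. The call of Clasp1 (adjusted p = 0.0216) ended without naive replicate 1 (0.0684) or naive replicate 3 (0.0525), without naive replicates 2 and 4 (0.064) and with each array centred on its median (0.213). All 8 condensin genes rose, with Ncapg2 at 2.84 ± 0.19, Smc2 at 1.96 ± 0.13, Ncaph2 at 0.87 ± 0.07 and Smc4 at 0.81 ± 0.07. Of 16 cohesin genes and regulators 12 rose and 4 were not called, with Sgo2a, which protects centromeric cohesion, at 3.15 ± 0.26, Espl1, the separase, at 2.72 ± 0.22, Pttg1, its inhibitor securin, at 2.08 ± 0.16 and the cohesin ring gene Smc1a at 0.80 ± 0.07. Of 17 genes of the anaphase-promoting complex and its partners, the target of the checkpoint, 11 rose and 6 were not called. The rise was large for the activator Cdc20 (3.08 ± 0.22) and the E2 enzymes Ube2c (3.62 ± 0.29) and Ube2s (1.81 ± 0.11), whereas the list's median was 0.33. The activator Fzr1 rose by 1.26 ± 0.08. Pds5b of the cohesin list and Cdc16 and Cdc26 of the last list are named because their rising calls ended. That of Pds5b (adjusted p = 0.0189) ended without naive replicate 3 or 4 (0.052 to 0.0587). That of Cdc16 (adjusted p = 0.0173) ended without naive replicate 2 or 3 (0.0526 to 0.053). Without naive replicates 2 and 4, the calls of Pds5b, Cdc16 and Cdc26 ended (0.143, 0.107 and 0.0787).

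The GC lines were then compared with each other. None of the 44 genes was called between B1-8 and V23 in either direction (0 higher and 0 lower by limma, beside 0.00581% and 0.0174% of all tested genes). At an unadjusted p under 0.05, 0 were higher and 3 lower in B1-8, beside 4.78% and 2.94% of all genes. The differences nevertheless ran one way in sign: 41 of the 44 genes had a lower mean in B1-8 than in V23, beside 49.1% of all tested genes, with a median of −0.19 beside 0.00 over all genes. In 16 of the 44 genes all B1-8 arrays lay below all V23 arrays, as in 6.63% of all genes, and in none did all B1-8 arrays lie above (7.07% of all genes). The median lay between −0.27 and −0.14 when each array was left out in turn, the latter without V23 replicate 3. With each array centred on its median it was −0.25, with 42 of 44 genes lower in B1-8 beside 59.1% of all genes. With the mean of all probe sets it was −0.16, with 38 of 44 genes lower beside 47.8% of all genes. Without B1-8 replicate 1, 39 of 44 genes were lower (47.5% of all genes), and without B1-8 replicate 3, 38 (47.9%). The genes share arrays and tend to move together, so that these counts are a description and carry no test. The related lists described above shifted the same way, with every B1-8 array mean below every V23 array mean. The highest B1-8 and lowest V23 means were 11.805 and 11.85 for condensin and 11.50 and 11.58 for cohesin and its regulators. They were 10.20 and 10.28 for other kinetochore and checkpoint genes and 11.18 and 11.21 for the anaphase-promoting complex. The shift was thus not particular to the 44 genes, and its cause was not tested.

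By complex, the median difference lay between −0.29 for the checkpoint genes and −0.06 for Cenpj and Cenpv, apart from Cenpb. The smallest p-values belonged to Mis12, Cenpw and Cenpm. Cenpw, which pairs with CENP-T, read 9.78, 9.87 and 9.82 in B1-8 and 9.97, 10.54 and 10.62 in V23 cells. All B1-8 values lay below all V23 values, with V23 replicate 1 close to them, and the difference B1-8 minus V23 was −0.56 (95% interval −0.96 to −0.16, unadjusted p = 0.0119, adjusted p = 0.547). Cenpm read 9.46, 9.21 and 9.32 in B1-8 and 10.08, 9.79 and 9.63 in V23 cells, a difference of −0.50 (−0.90 to −0.10, adjusted p = 0.565). Mis12 read 9.53, 9.70 and 9.80 in B1-8 and 9.99, 9.94 and 10.12 in V23 cells, a difference of −0.34 (−0.58 to −0.10, adjusted p = 0.547). The 3 genes with a higher mean in B1-8 were Cenpb (0.45, interval −0.49 to 1.39), Cenpt (0.13, −0.21 to 0.46) and Zw10 (0.05, −0.14 to 0.25). The largest fitted difference, in Ndc80, was −0.61 (interval −1.55 to 0.33, adjusted p = 0.778), with overlapping arrays of 8.68, 9.04 and 8.00 in B1-8 and 8.70, 9.19 and 9.66 in V23. In 36 of the 44 genes the 95% interval excluded a difference of 2-fold in either direction, whereas for Bub1b it reached from −1.71 to 1.12. Neutrophil array means were 11.58, 11.48 and 11.37 in B1-8 and 11.23, 10.75 and 11.56 in V23 cells, and their part in the difference between the lines was not tested.

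**Figure D3:**
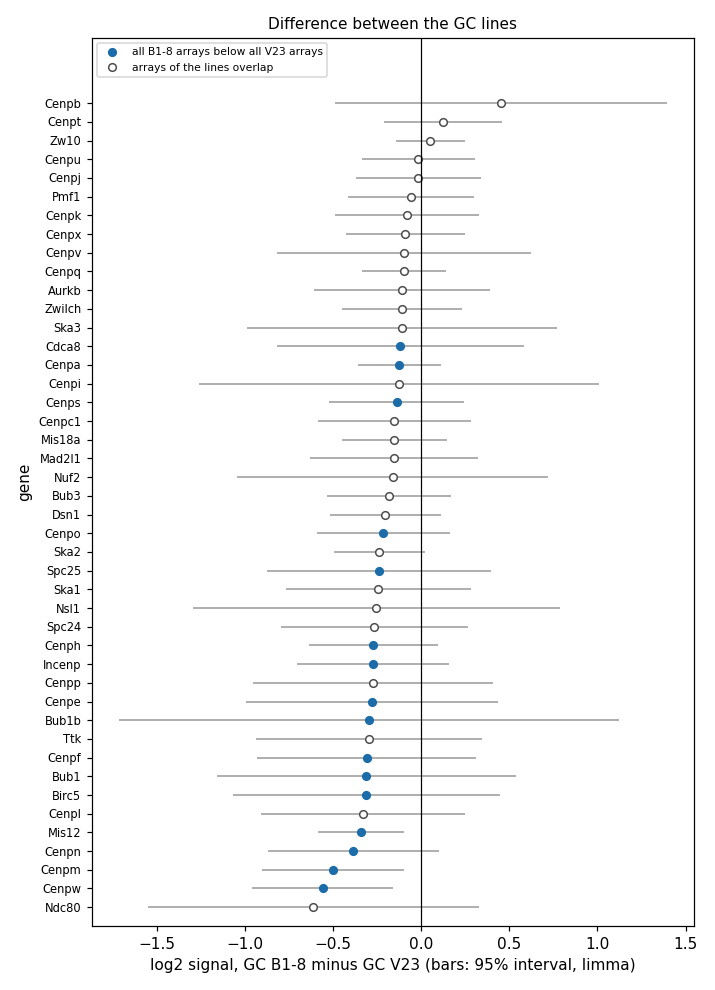
Difference in log2 signal between GC B1-8 (n = 3) and GC V23 (n = 3) for each of the 44 genes, sorted, with 95% intervals of the limma fit as bars. Points lie left of 0 for 41 genes, most intervals include 0, and filled points mark the 16 genes in which all B1-8 arrays lie below all V23 arrays.

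Probe sets of the same gene did not always move together. The 44 genes have 87 probe sets of their own symbol, of which 86 passed the filter. Of the 42 tested probe sets that were not used above, 22 were higher, 3 lower and 17 not called in the mean comparison, in a fit over 41235 probe sets of which 16.4% were higher and 20.9% lower, and 34 had the sign of the probe set used. The other probe set of Nsl1 (1455852_at) read 5.41, 6.03, 5.65 and 5.91 in naive, 7.86, 8.00 and 8.18 in B1-8 and 8.17, 8.24 and 8.10 in V23 cells. It rose by 2.34 ± 0.14 (adjusted p = 1.00e-05), with no overlap, opposite to the fall of the brighter probe set, which missed the threshold in this fit over all probe sets (adjusted p = 0.0549). With the mean of the gene's probe sets Nsl1 was at 0.66 (adjusted p = 0.0439). The other probe set of Pmf1 (1416707_a_at) rose by 1.64 ± 0.11 (adjusted p = 1.29e-05), more than the 0.39 of the one used.

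Zw10 showed the opposite pattern. All 3 of its other probe sets fell, while the probe set used (1424891_a_at) stood at 10.26 ± 0.07 (SD, n = 4) in naive cells. It stood at 10.60 ± 0.08 in B1-8 and at 10.55 ± 0.03 in V23 (n = 3 each). The probe set 1431747_at read 8.28, 8.52, 8.29 and 8.05 in naive, 6.38, 5.09 and 7.10 in B1-8 and 4.59, 4.72 and 3.81 in V23 cells, a change of −3.003 ± 0.37 (adjusted p = 0.00031). B1-8 lay between naive and V23 without overlap, although the difference between the lines was not called (1.82 ± 0.47, adjusted p = 0.449). The change was −3.99 ± 0.46 for 1441888_x_at and −2.61 ± 0.49 for 1445206_at. Each had 5 of 6 GC arrays below log2 4, where values carry little order, and with values raised to log2 4 they fell by at least 3.30 and 1.72 on the log2 scale. The direction given for Nsl1 and Zw10 thus depends on the probe set.

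**Figure D4:**
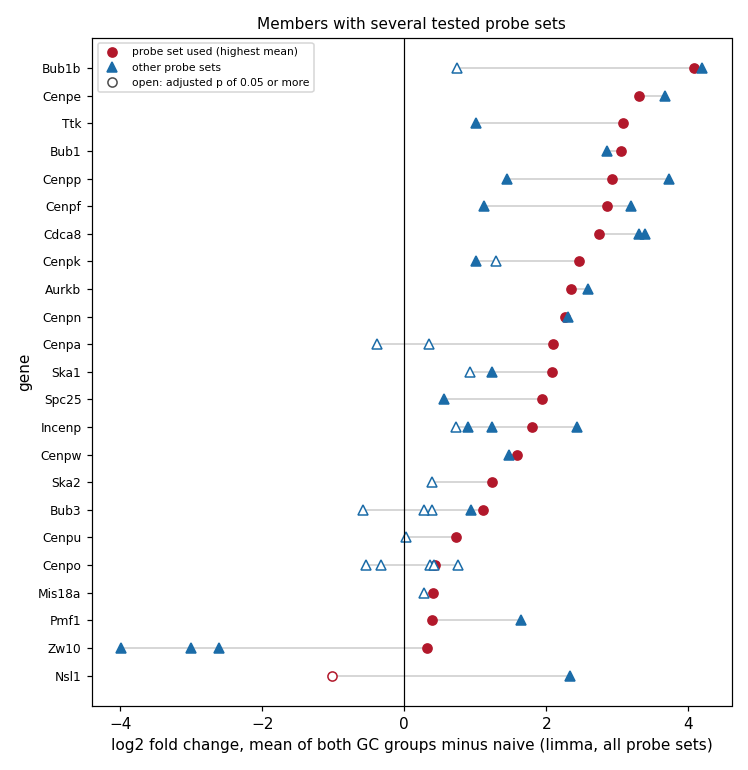
Log2 fold change, averaged over both GC groups, against naive cells for every tested probe set of the genes with more than 1 tested (red circles, the probe set used; blue triangles, the others; open symbols, adjusted p of 0.05 or more). The blue triangles of Zw10 lie far left of 0 and that of Nsl1 lies at 2.34 on the right, each opposite to the red circle of the same gene.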

How the data were processed

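RNA of sorted B cells was hybridized to Affymetrix mouse arrays, 10 in all. The authors deposited log2 signals, 1 per probe set. Per the submitters' processing notes the authors used GCRMA (version not given); the values themselves have no floor and a mean of unlogged signals, trimmed by 2% at each end, of 500 on every array, so the background method is uncertain. They were used as deposited, between −4.29 and 14.9. Arrays give no counts, and the number of arrays limits the precision.

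Of 45101 probe sets, 34958 carry 1 gene symbol in the platform annotation. The named genes are all members of the rule, and up to 4 genes with the smallest p from each other list. Others were named where their direction or the end of a call is described. Members and lists were chosen with earlier results of these data known. Group means were fitted to all 10 arrays with limma 3.58.1 in R 4.3.3 (two-sided moderated test, 7 residual and 1.46 prior degrees of freedom, Benjamini-Hochberg over 17204 genes, threshold 0.05). The fit was tested on simulated data with independent normal values and known shifts. Such data cannot show whether replicates were separate animals or how correlated genes behave. Errors are SE for fold changes and SD for levels. Promoters came from RefSeq. No protein or probe sequence was used here. Alternatives covered the filter, the probe set rule, normalization, a floor, moderation, array weights, the samples fitted, a replicate block and each array left out. Same-numbered arrays of different groups did not deviate together (r between −0.02 and 0.07). The labels give only the replicate number, and whether same-numbered samples were handled together is not known. Figures were drawn with matplotlib 3.10.9.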

Additional observations from a re-analysis of the deposited data

Results flagged for a closer look

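Zwilch in naive replicate 2 stood apart from the other naive arrays, at a log2 signal of 8.996 against 8.55, 8.57 and 8.53 in replicates 1, 3 and 4; the gap to the nearest of the others, as a share of the range of the group, exceeded the Dixon limit for 4 samples. This was the only such value among 45 sets of naive values examined (the 44 genes and their mean). Chance alone gives about 1 in every 20 sets, so that 1 among 45 is not more than chance gives. The sets share arrays. All GC arrays, at 10.42 to 10.77, lay above it.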

How the results depend on the processing

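Across 21 alternatives (20 for the mean comparison) the number of genes that rose stayed between 38 and 42 for the mean of both GC groups, between 34 and 40 for B1-8 and between 37 and 42 for V23; no alternative called any of the 44 genes between the lines. Leaving out each array in turn gave 38 to 41, 36 to 38 and 37 to 41 genes that rose, and medians of 1.92 to 2.16, 1.82 to 2.02 and 2.02 to 2.22, with 0 to 1 genes lower in each comparison. The 1 gene called lower in the mean comparison, Nsl1, became 0 with no filter, quantile normalization, median centring, array weights, the replicate block, and with naive replicates 2 and 4 left out. In B1-8 the 0 genes lower became 1 with the mean of probe sets and with the intensity trend, and in V23 with the mean of probe sets and with only the compared groups fitted. The mean of all probe sets gave lower medians, 1.63 for both GC groups, 1.57 for B1-8 and 1.79 for V23, and it reversed Nsl1 (0.66) and Zw10 (−2.32, and −1.95 in B1-8 and −2.70 in V23). Among the 43 genes called in the mean comparison, 9 lost their call under some alternative: Bub3, Cenpj, Cenpo, Cenpt, Cenpu, Mis12, Mis18a, Nsl1 and Pmf1; the cause was not tested. The replicate block, for which 2 of 9 arrays correlated best with their own number, gave 39 genes that rose in the mean comparison, 37 in B1-8 and 38 in V23. Median centring moved the median of all genes in V23 against naive from 0.06 to 0.19, and the median of the 44 genes to 2.23. Signals near log2 4 limit the fold changes of dim probe sets.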
